A study of Mus musculus with 12 samples.

Results

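The DNA replication machinery was described at the RNA level through 55 mouse genes, which were chosen by name and grouped into 13 sub-complexes by the known function of their products. Each of the 55 names matched exactly 1 entry in the cell tables, which held 40077 genes, and 1 entry in the tumor tables, which held 34508. All 55 passed the filter on low counts in both experiments. The cells were 1 line, Myc-CaP, a mouse prostate carcinoma line from a mouse that carries a human MYC transgene in the prostate, so all 12 libraries share that oncogene. Cultured Myc-CaP cells received the solvent DMSO or 1 μM YJ1206 for 24 h, and subcutaneous Myc-CaP tumors in male FVB mice were treated orally with vehicle or with YJ1206, the latter at 100 mg/kg and 3 doses a week. Each of the 4 groups has 3 libraries. YJ1206 is a degrader of CDK12 and CDK13, kinases that phosphorylate RNA polymerase II during elongation. Host ages, the length of tumor treatment and any pooling of tumors were not given in the labels.

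A chromosome is copied once per cell cycle because helicase loading and helicase activation happen at different times. In G1 the origin recognition complex, Cdc6 and Cdt1 load the MCM2-7 helicase onto DNA, and geminin later binds Cdt1 and stops reloading. In S phase the Cdc7-Dbf4 kinase, Mcm10, Cdc45 and the GINS complex turn the loaded ring into a moving helicase. Polymerase alpha-primase starts each strand, the clamp loader places PCNA, and polymerases epsilon and delta extend the leading and lagging strands. Ribonucleotide reductase, thymidylate synthase and thymidine kinase supply the building blocks, and E2F factors drive the transcription of many of these genes in proliferating cells.

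Libraries held 13936902 to 18519926 estimated counts in cells and 15391544 to 26928365 in tumors. Counts relative to the library total (CPM), scaled by the trimmed mean of M values (TMM), are used below for differences within an experiment, and TPM, the transcript share corrected for length, for levels between genes. The DMSO and YJ1206 cell libraries carry library numbers from separate runs of numbers, so treatment and library set cannot be told apart in cells. Of the luminal epithelial markers checked, Krt19, a keratin, was at 145 ± 3.67 TPM (SD, n = 3) and Krt8, another, at 2.88 ± 0.178 TPM in DMSO cells, while the epithelial adhesion gene Epcam was listed at 0 in every cell library and Cdh1, which encodes E-cadherin, was at 0.00945 ± 0.0164 TPM.

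The tumor libraries were less even than those of cells (edgeR's common biological coefficient of variation, 0.139 in tumors and 0.0322 in cells). Among genes that differed clearly between libraries 1 and 2 of a tumor group, library 3 lay between them for 98.1% in vehicle tumors and 97.4% in YJ1206 tumors. Over all 55 replication genes, with no such filter on the difference, library 3 lay between for 37 in vehicle tumors and for 43 in YJ1206 tumors. YJ1206 library 1 had the lowest CPM of the 3 treated tumors for 51 of the 55, and the summed TPM of 44 mitosis genes was 641 in it against 1323 and 1080.0 in YJ1206 libraries 2 and 3. Without that library 48 members were called lower in tumors, against 50 with it, and 1667 of 15558 genes were, against 2322. The members' tumor counts, median and range are therefore also given from libraries 1 and 2 alone. Summed TPM of 8 skeletal muscle genes was 810, 37.6 and 499 in vehicle libraries 1, 2 and 3 and 17.0 to 19.0 in YJ1206 tumors. Vehicle libraries 1, 2 and 3 lay above all 3 YJ1206 tumor libraries for 52, 53 and 53 of the 55 replication genes. The share of all genes was not counted for single vehicle libraries. All 3 together lay above for 51 of the 55, against 22.8% of all genes. The part of muscle RNA in the tumor results was not tested.

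Replication genes moved in both directions in cultured cells and in 1 direction in tumors. In cells, 17 of 55 (30.9%) rose and 30 (54.5%) fell at an edgeR adjusted p under 0.05, where 37.8% of the 11826 genes tested rose and 38.3% fell (76.1% called in either direction). With such shares, opposite calls within a sub-complex, as given below for cells, also occur among unrelated genes. Whether they were more frequent within a sub-complex was not tested. The members' median log2 fold change was -0.17, against -0.017 over all genes tested. In tumors, 50 of 55 (90.9%) fell and 0 rose, where 14.9% of 15558 genes fell and 11.9% rose (26.8% in either direction), and the members' median was -0.84 against 0.0091. The 5 genes without a call in tumors were Orc3, Orc5, Gins2, Pold3 and E2f2. The CPM of the groups did not overlap for any called member. Over all genes the treated libraries were wholly above the controls for 38.4% and wholly below for 39.2% in cells, and for 21.8% and 22.8% in tumors. At least 2-fold changes were called for 8 members in cells and 21 in tumors. The share of all genes at that cut was not counted, so these counts are descriptions only.

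The sign of several members depended on scaling in cells, and no sign in tumors did. With TPM the tumor calls of Orc4 (-0.30, limma adjusted p = 0.094) and Gins3 (-0.59, limma adjusted p = 0.0545) were lost. With total counts in place of TMM the median of all genes moved to -0.20 in cells, and with the deposited TPM to -0.25. The share of all calls that were higher fell from 49.7% to 36.1% and 29.2%, and the number of members called higher fell from 17 to 9 and 4, where the background of genes called higher was 28% and 21.4%. Members called lower numbered 38 and 42, against 49.7% and 52% of all genes. In tumors the same scalings gave 0 members higher, against 12.1% and 8.1% of all genes, and 50 and 48 lower, against 15% and 15.4%. Of the 17 genes called higher, Orc5, Cdt1, Gmnn, Mcm7, Pold2, Rfc3 and Uhrf1 kept their sign under every scaling, whereas Orc6, Mcm3, Dbf4, Prim2, Pole2, Rfc1, Rpa1, Rpa2, Fen1 and Lig1 turned negative with TPM or total counts. Of the 7, Cdt1, Mcm7, Rfc3 and Uhrf1 were still called higher with TPM, and Orc5, Gmnn and Pold2 were not. Relative to the shifted TPM median all 17 lay above it, but Rfc1 (0.0009), Rpa2 (0.016) and Rpa1 (0.057) barely did, and this was not tested. With total counts all genes shift by nearly the same amount, so subtracting the median returns about the TMM value and shows nothing further. Of the 30 called lower, 29 stayed lower under every scaling, and the exception was Orc4.

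With tumor libraries 1 and 2 alone, 2 against 2, 0 members passed the adjusted threshold (smallest edgeR adjusted p 0.134), and 1 gene of the whole table did. Each of the 50 tumor calls given below is thus lost with those 4 libraries, for example Cdt1 (-1.18, edgeR adjusted p = 0.135) and Rrm2 (-1.94, edgeR adjusted p = 0.134). The values themselves hardly moved, since 54 of 55 members were lower, the median was -0.84 and the range was -1.94 to 0.075. By unadjusted p under 0.05, 50 members were lower in those 4 libraries, against 11% of all genes. Leaving out 1 tumor library at a time gave 41 to 51 members lower, and 1110 to 2965 of all genes. The lowest counts were 41 without YJ1206 library 3 and 42 without vehicle library 3, where 1110 and 1175 of 15558 genes were lower.

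**Figure D1:**
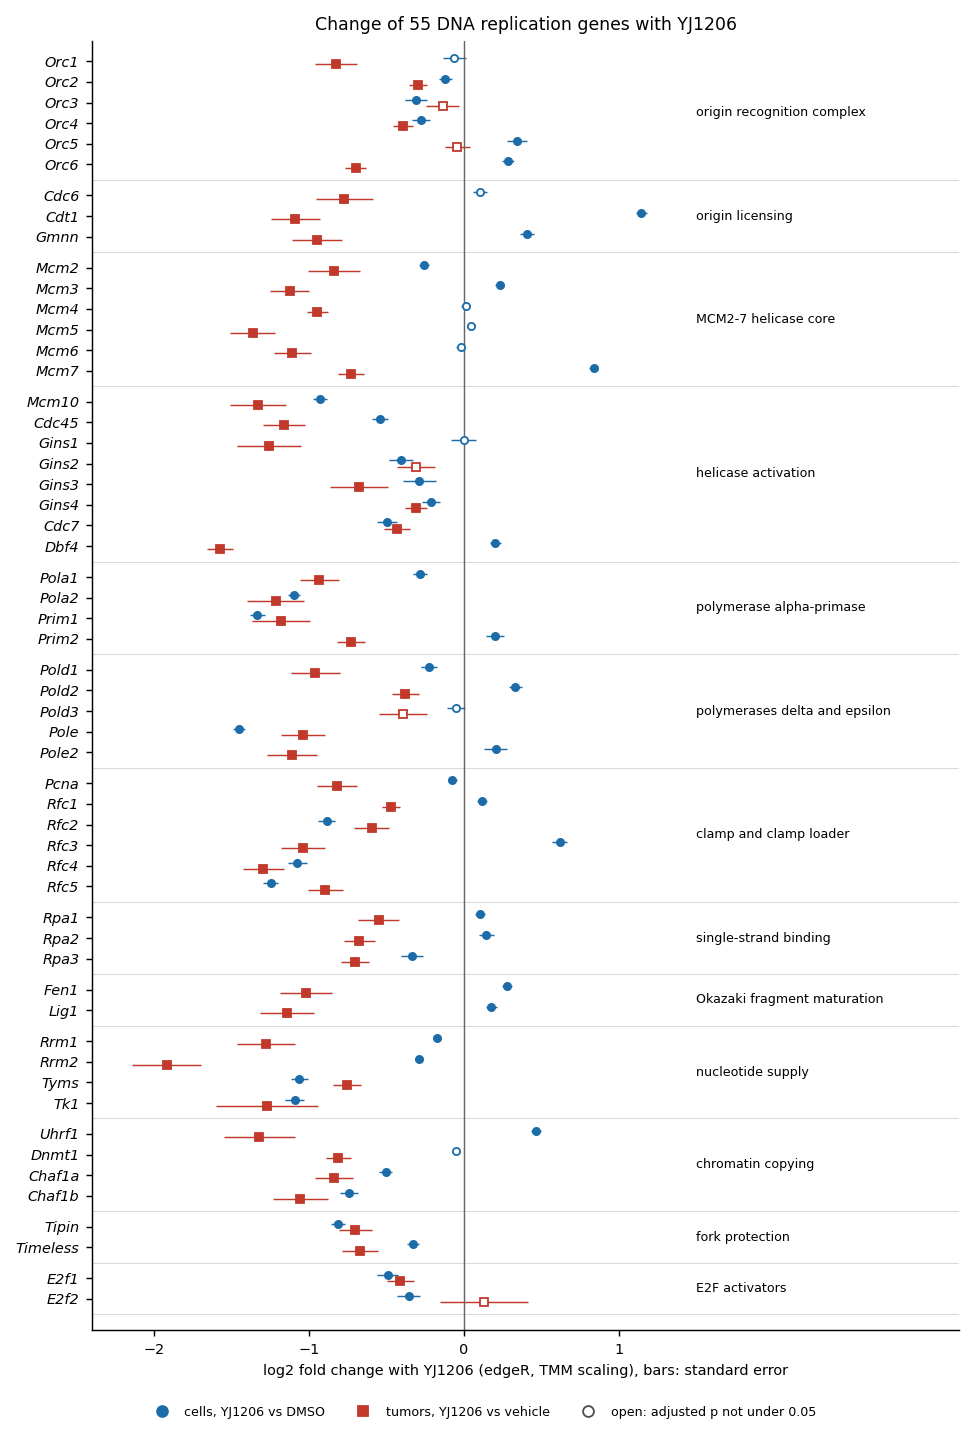
Log2 fold change of each of the 55 replication genes with YJ1206 (x axis, TMM scaling), in cells (blue circles, against DMSO) and in tumors (red squares, against vehicle), with bars for 1 standard error and open symbols where the adjusted p was not under 0.05. In cells 17 genes sit right of 0 with a call, 10 of which turn negative with TPM or total counts, while in tumors 50 sit left of 0 with a call and 0 to the right.

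The replication genes were expressed at very different levels. In DMSO cells the mean TPM ran from 10.1 for E2f2 to 768.6 for Rrm2, with a median of 76.3 over the 55 genes, and Pcna (394 ± 1.38, SD, n = 3), Tipin (374 ± 13.7) and Mcm7 (297 ± 9.54) followed Rrm2. In vehicle tumors the range was 5.9 for Gins2 to 237.5 for Rrm2, with a median of 43.4. Mean TPM was lower in vehicle tumors than in DMSO cells for 54 of 55 genes, values that stand side by side only, since cultured cells and whole tumors differ in their cell makeup and their tables were made separately. In tumors, fewer tumor cells and less RNA per tumor cell cannot be told apart. In YJ1206 tumors Mcm7, at 91.03 ± 7.33 TPM, had the highest mean, with all 3 libraries above those of Rrm2 (61.1 ± 17.5 TPM). Its neighbour in that order, Pcna (83.4 ± 14.6 TPM), did not differ from Mcm7 beyond the spread.

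Promoters were read for the E2F site, because E2F factors act on genes of this set as their known targets. RefSeq promoter windows of 300 bases, 250 before and 50 after the start (GRCm38.p6), were found for 46 of the 55 genes. The first listed window of each gene was used, and not all hold sequence upstream of the gene. Annotated exons, of the gene or another, covered all 160 bases before the start for E2f1, Lig1, Mcm7 and Orc6. The stretch before the start for Timeless lay inside its gene, and the counts below include these windows. The words TTTCCCGC, TTTGGCGC, TTTCGCGC and TTTGCCGC were searched on both strands, and these can overlap each other. At least 1 was present in 15 of 46 members (32.6%), against 2.32% of 27025 promoters in the table. The CCAAT box was present in 56.5% of members against 37.9%, and TTTGAA, the core of the cell cycle homology region, in 15.2% against 18.1%. By call in cells, an E2F word was present in 5 of 15 genes called higher, 5 of 25 called lower and 5 of 6 not called. These are descriptions of letters in a window, and no match says nothing about a factor. The 160 bases before the start are printed for Mcm5 and Mcm6, the members with the most words that are printed here, and for Pola1 and Pola2, which make the same polymerase and of which only Pola1 holds a word in its window. All 4 fell in tumors, while Mcm5 and Mcm6 were not called in cells. Capitals mark E2F words, and the sequences run 5′ to 3′ on the strand of the gene.
Mcm5 (chr8:75109349-75109508, plus strand): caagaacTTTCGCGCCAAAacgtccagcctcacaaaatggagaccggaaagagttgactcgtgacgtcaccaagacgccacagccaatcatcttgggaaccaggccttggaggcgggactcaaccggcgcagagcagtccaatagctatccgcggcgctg
Mcm6 (chr1:128359706-128359865, minus strand): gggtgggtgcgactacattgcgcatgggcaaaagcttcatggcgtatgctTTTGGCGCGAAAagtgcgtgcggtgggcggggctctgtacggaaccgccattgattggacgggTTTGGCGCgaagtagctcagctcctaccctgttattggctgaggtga
Pola1 (chrX:93632156-93632315, minus strand): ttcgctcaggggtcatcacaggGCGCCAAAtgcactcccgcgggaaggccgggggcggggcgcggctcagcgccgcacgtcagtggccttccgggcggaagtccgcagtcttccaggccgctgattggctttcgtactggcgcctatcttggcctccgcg
Pola2 (chr19:5964207-5964366, minus strand): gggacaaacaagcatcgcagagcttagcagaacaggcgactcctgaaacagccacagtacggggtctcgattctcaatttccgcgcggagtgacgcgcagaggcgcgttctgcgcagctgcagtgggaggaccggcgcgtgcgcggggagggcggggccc
In Mcm5 the words began 153 and 149 bases before the start, in Mcm6 110, 106 and 47 bases before it, and in Pola1 138 bases before it.

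The origin recognition complex marks the sites where helicases are loaded. Of its 6 genes, 2 rose, 3 fell and 1 was not called in cells, with Orc6 among the 2 turning to -0.059 with TPM, and 4 fell in tumors, where the median was -0.35. Orc5 gave 33.8, 30.2 and 32.2 CPM with DMSO and 43.7, 38.4 and 39.9 CPM with YJ1206 in cells. All YJ1206 libraries were above all DMSO libraries (log2 fold change 0.34, SE 0.065, edgeR adjusted p = 2.96e-05). In tumors Orc5 stood at 29.02, 29.1 and 29.1 CPM with vehicle and 26.2, 29.2 and 29.4 CPM with YJ1206, and the groups overlapped (log2 fold change -0.041, SE 0.079, edgeR adjusted p = 0.741). Orc6, the smallest subunit, gave 97.8, 99.4 and 100.1 CPM with DMSO and 123, 119 and 119 CPM with YJ1206 in cells (0.28, SE 0.038, edgeR adjusted p = 1.36e-07), with no overlap. The same gene moved the other way in tumors, from higher vehicle values to lower treated ones, at 45.7, 49.6 and 46.3 CPM with vehicle and 28.6, 29.00 and 29.7 CPM with YJ1206 (-0.70, SE 0.068, edgeR adjusted p = 0.00122). Orc1, the subunit that comes and goes with the cell cycle, was at 27.8, 28.2 and 28.3 CPM with DMSO and 26.5, 25.1 and 29.4 CPM with YJ1206 in cells, where the groups overlapped (-0.06, SE 0.071, edgeR adjusted p = 0.449). Its tumor values, 15.2, 14.4 and 14.2 CPM with vehicle and 6.94, 9.58 and 8.15 CPM with YJ1206, gave the largest change of the complex there (-0.83, SE 0.14, edgeR adjusted p = 0.00553). Log2 fold changes of Orc2, Orc3 and Orc4 lay between -0.31 and -0.12 in cells and between -0.39 and -0.14 in tumors, with Orc3 not called in tumors. The Orc4 call in tumors was lost with TPM, where its groups overlapped (-0.30, limma adjusted p = 0.094). The Orc2 call in tumors was lost without YJ1206 library 3 (-0.29, edgeR adjusted p = 0.0572), and its call in cells without DMSO library 1 (-0.079, edgeR adjusted p = 0.0923) or YJ1206 library 1 (-0.098, edgeR adjusted p = 0.0786).

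Of the 3 licensing genes, 2 rose and 1 was not called in cells, and all 3 fell in tumors. Cdt1, which brings the MCM ring to origins, stood at 108, 113 and 108 CPM with DMSO and 245, 246 and 238 CPM with YJ1206 in cells, and the treated libraries were all far above the controls. It reached 2.21 times the DMSO level (log2 fold change 1.15, SE 0.035, edgeR adjusted p = 5.17e-21), the largest rise of the 55 genes. In tumors Cdt1 was at 66.2, 55.8 and 56.1 CPM with vehicle and 21.2, 32.7 and 29.8 CPM with YJ1206, with every treated library below every vehicle library (-1.09, SE 0.16, edgeR adjusted p = 0.00384). Gmnn, which encodes geminin, the inhibitor of Cdt1, was at 55.2, 59.7 and 57.3 CPM with DMSO and 77.8, 75.8 and 74.8 CPM with YJ1206 in cells (0.41, SE 0.046, edgeR adjusted p = 8.98e-09) and at 24.2, 26.1 and 25.2 CPM with vehicle and 10.2, 16.1 and 12.8 CPM with YJ1206 in tumors (-0.95, SE 0.16, edgeR adjusted p = 0.00594). Both members of this activator and inhibitor pair fell in tumors and were called higher in cells by counts, while with TPM the Gmnn groups overlapped and its value of 0.097 was not called. Cdc6, an ATPase that takes part in loading the MCM ring, was at 60.3, 58.98 and 56.1 CPM with DMSO and 62.6, 61.9 and 64.1 CPM with YJ1206 in cells. Its 3 treated libraries were above the DMSO libraries by a margin that did not pass (0.10, SE 0.048, edgeR adjusted p = 0.0513), and its sign turned with TPM (-0.27). In tumors Cdc6 gave 22.2, 19.1 and 21.5 CPM with vehicle and 8.74, 14.4 and 13.6 CPM with YJ1206, with no overlap (-0.77, SE 0.18, edgeR adjusted p = 0.0205). That call was lost without vehicle library 3 (-0.76, edgeR adjusted p = 0.0762) or YJ1206 library 3 (-0.86, edgeR adjusted p = 0.0596).

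The 6 subunits of the MCM2-7 ring, which occurs as a hexamer with 1 copy of each, split in cells and fell together in tumors. In cells 2 rose (Mcm3 turning to -0.075 with TPM), 1 fell and 3 were not called, where 37.8% of all genes rose and 38.3% fell. In tumors all 6 fell, with log2 fold changes from -1.36 to -0.73, where 14.9% of all genes fell. Mcm2 gave 328, 338 and 324 CPM with DMSO and 266, 282 and 281 CPM with YJ1206 in cells, every treated value below the controls (-0.26, SE 0.031, edgeR adjusted p = 2.1e-08), and 157, 103 and 131 CPM with vehicle and 60.6, 81.7 and 76.9 CPM with YJ1206 in tumors (-0.84, SE 0.17, edgeR adjusted p = 0.0112). Mcm3 gave 328, 330.1 and 324 CPM with DMSO and 382, 386 and 384 CPM with YJ1206 in cells (0.23, SE 0.027, edgeR adjusted p = 1.34e-08) and 121, 102 and 113 CPM with vehicle and 42.2, 57.95 and 53.9 CPM with YJ1206 in tumors (-1.12, SE 0.12, edgeR adjusted p = 0.00171). Neither gene overlapped between groups in either experiment, and the directions of Mcm3 were opposite. Mcm7 rose most of the ring in cells, with 337, 363 and 346 CPM with DMSO and 601, 624 and 646 CPM with YJ1206 (0.84, SE 0.03, edgeR adjusted p = 2.09e-19), and in tumors it gave 182, 164 and 178 CPM with vehicle and 92.9, 113 and 111 CPM with YJ1206 (-0.73, SE 0.086, edgeR adjusted p = 0.0021). Mcm7, at chr5:138164583-138172422 (minus strand) on GRCm38, shares exon bases on the opposite strand with Ap4m1 and Cops6, and whether the counting used strand was not given in the sources used here. Mcm5 was nearly level in cells, at 407, 409 and 399 CPM with DMSO and 412, 413 and 430.3 CPM with YJ1206 (0.046, SE 0.027, edgeR adjusted p = 0.121), a value that turns to -0.27 with TPM. In tumors it had the largest fall of the ring, 150.3, 124 and 134 CPM with vehicle and 41.6, 61.2 and 55.6 CPM with YJ1206 (-1.36, SE 0.14, edgeR adjusted p = 0.00165). Mcm4 and Mcm6 had log2 fold changes of 0.014 and -0.019 in cells, neither called, and of -0.95 and -1.11 in tumors, both called.

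**Figure D2:**
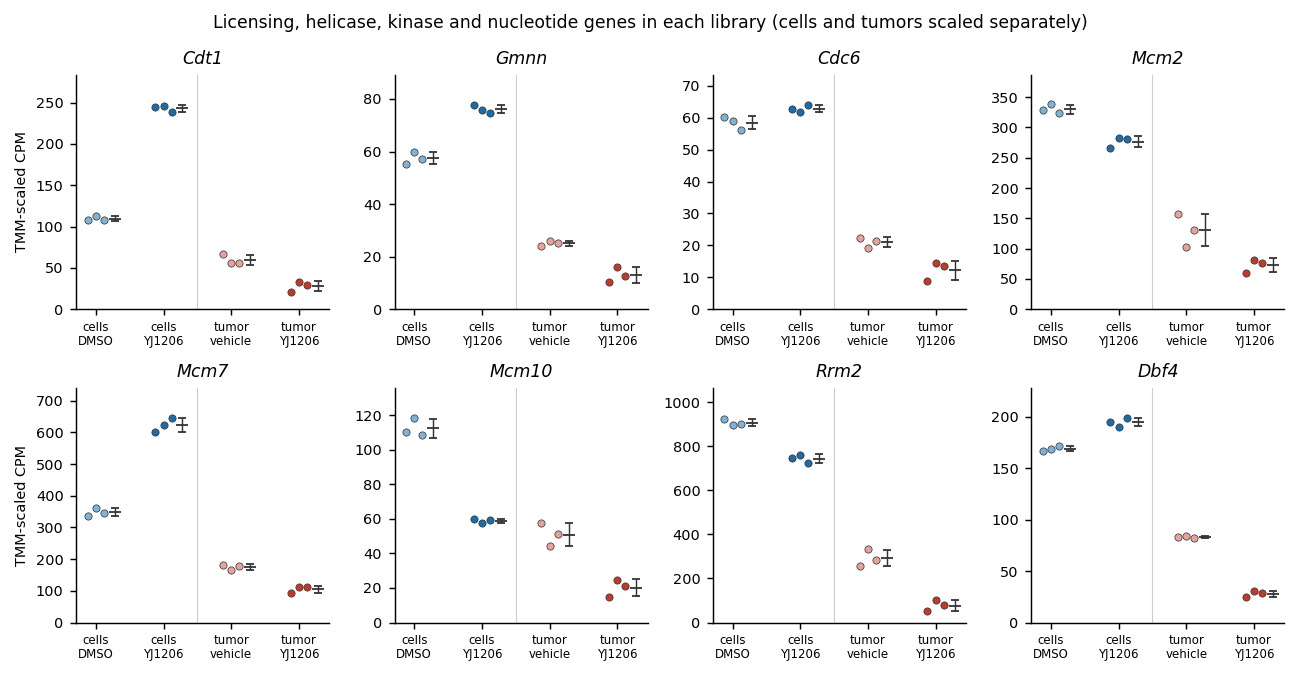
TMM-scaled CPM (y axis, from 0) of Cdt1, Gmnn, Cdc6, Mcm2, Mcm7, Mcm10, Rrm2 and Dbf4 in every library, with the mean and SD of each group of 3 beside the points; cells and tumors were scaled separately. Cdt1, Gmnn, Mcm7 and Dbf4 are higher with YJ1206 in cells and lower in tumors, though Dbf4 turns negative in cells with TPM, while Mcm10 is lower with YJ1206 in both.

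Genes that activate the loaded helicase mostly fell in both settings. Of the 8, 1 rose (Dbf4, turning to -0.12 with TPM), 6 fell and 1 was not called in cells, and 7 fell in tumors. Mcm10, which links the helicase to polymerase alpha, gave 109.9, 118 and 108 CPM with DMSO and 59.8, 57.4 and 59.3 CPM with YJ1206 in cells (-0.93, SE 0.044, edgeR adjusted p = 1.01e-16), without overlap. In tumors it gave 57.3, 44.2 and 51.1 CPM with vehicle and 14.9, 24.3 and 21.3 CPM with YJ1206 (-1.33, SE 0.18, edgeR adjusted p = 0.00316). Dbf4, the regulatory subunit of Cdc7, was at 166, 169 and 172 CPM with DMSO and 195, 191 and 198 CPM with YJ1206 in cells (0.20, SE 0.033, edgeR adjusted p = 4.36e-06). It had the largest tumor fall of this sub-complex, with 83.6, 84.01 and 82.1 CPM with vehicle and 25.01, 30.6 and 28.3 CPM with YJ1206 (-1.57, SE 0.084, edgeR adjusted p = 0.000504). Its catalytic partner Cdc7 changed by -0.50 in cells and -0.43 in tumors, both called lower. The 2 subunits of 1 kinase were thus called in opposite directions in cells, where 37.8% of all genes rose and 38.3% fell. Cdc45, which joins the ring at firing, changed by -0.54 and -1.16. The 4 GINS genes ranged from -0.41 (Gins2) to 0.00078 (Gins1) in cells and from -1.26 (Gins1) to -0.31 (Gins4, and Gins2 without a call) in tumors. Gins3 was called lower in both, but its call in cells was lost without DMSO library 1 (-0.24, edgeR adjusted p = 0.0624) or YJ1206 library 1 (-0.14, edgeR adjusted p = 0.226). Its tumor call was lost in all fits that left out a library but the one without vehicle library 2, with values of -0.80 to -0.54. With TPM that call was lost too (-0.59, limma adjusted p = 0.0545). Calls in tumors of Cdc7 and Gins4 were lost without library 3 of either group, with edgeR adjusted p from 0.0543 to 0.0705.

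Polymerase alpha-primase, which lays the RNA-DNA primer of every new strand, held 3 members that fell and 1 that rose in cells. Of all genes 38.3% fell and 37.8% rose there. Prim1, the catalytic primase subunit, gave 109, 104 and 101 CPM with DMSO and 43.2, 40.6 and 40.8 CPM with YJ1206, a fall to 0.397 of the DMSO level (-1.33, SE 0.048, edgeR adjusted p = 2.39e-19). Its partner Prim2 gave 39.4, 42.9 and 38.6 CPM with DMSO and 45.2, 45.4 and 48.4 CPM with YJ1206 (0.20, SE 0.058, edgeR adjusted p = 0.00294), with a sign that turns to -0.11 with TPM. Pola2, the accessory subunit, gave 203, 210.1 and 194 CPM with DMSO and 94.3, 95.8 and 93.7 CPM with YJ1206 (-1.10, SE 0.038, edgeR adjusted p = 1.22e-19). The treated libraries of Prim1 and Pola2 were thus all below the controls, and those of Prim2 all above. In tumors all 4 fell, Pola2 most, at 99.4, 70.4 and 88.9 CPM with vehicle and 28.4, 44.2 and 38.6 CPM with YJ1206 (-1.22, SE 0.18, edgeR adjusted p = 0.00417). Prim1 was at 44.03, 43.6 and 43.4 CPM with vehicle and 13.8, 24.7 and 19.2 CPM with YJ1206 (-1.18, SE 0.19, edgeR adjusted p = 0.00489) and Prim2 at 26.2, 26.3 and 26.4 CPM with vehicle and 15.7, 17.2 and 14.6 CPM with YJ1206 (-0.73, SE 0.09, edgeR adjusted p = 0.00237). Neither primase gene overlapped between the tumor groups. Pola1, the catalytic polymerase subunit, changed by -0.28 in cells and -0.93 in tumors.

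The polymerases that extend the strands were also called in both directions within a complex in cells, where 37.8% of all genes rose and 38.3% fell. Pole, the catalytic subunit of the leading-strand polymerase epsilon, had the largest fall of all 55 genes in cells by counts, at 189.7, 189 and 201 CPM with DMSO and 70.9, 72.3 and 69.2 CPM with YJ1206 (-1.45, SE 0.04, edgeR adjusted p = 8.64e-22). With TPM its value was -1.23, smaller than those of 6 other members, of which Prim1 fell most (-1.63). Pole2, its accessory subunit, gave 23.9, 26.3 and 22.8 CPM with DMSO and 26.98, 28.3 and 28.8 CPM with YJ1206 (0.20, SE 0.074, edgeR adjusted p = 0.0142). The rise of Pole2 turned to -0.10 with TPM, its call was lost without DMSO library 3 (0.15, edgeR adjusted p = 0.092), and it shares exon bases on the same strand with the annotated gene Gm49384. In tumors Pole gave 142, 142 and 145 CPM with vehicle and 53.3, 81.1 and 74.5 CPM with YJ1206 (-1.04, SE 0.14, edgeR adjusted p = 0.00312) and Pole2 9.33, 10.5 and 10.7 CPM with vehicle and 4.26, 5.73 and 4.07 CPM with YJ1206 (-1.11, SE 0.16, edgeR adjusted p = 0.00376), both without overlap. Pold2, the accessory subunit of the lagging-strand polymerase delta, was at 68.5, 70.2 and 65.7 CPM with DMSO and 85.4, 85.1 and 86.9 CPM with YJ1206 in cells (0.33, SE 0.043, edgeR adjusted p = 8.18e-08), above the controls in every library, though with TPM its value of 0.086 was not called. In tumors it was at 50.7, 53.7 and 53.5 CPM with vehicle and 36.2, 44.2 and 41.04 CPM with YJ1206 (-0.38, SE 0.087, edgeR adjusted p = 0.018), a call that was lost without vehicle library 3 (-0.37, edgeR adjusted p = 0.0777) or YJ1206 library 3 (-0.39, edgeR adjusted p = 0.072). Pold1, the catalytic subunit, changed by -0.23 and -0.96, both called, and Pold3 by -0.05 and -0.39, neither called.

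The clamp loader, a ring of 5 different subunits that opens PCNA and closes it around DNA, had 2 subunits called higher (Rfc1 turning to -0.24 with TPM) and 3 lower in cells. Rfc5 fell most, with 98.1, 97.8 and 95.5 CPM with DMSO and 40.01, 42.9 and 39.8 CPM with YJ1206 (-1.25, SE 0.047, edgeR adjusted p = 6.32e-19). Rfc4 gave 56.3, 50.9 and 53.1 CPM with DMSO and 26.8, 24.5 and 24.6 CPM with YJ1206 (-1.07, SE 0.063, edgeR adjusted p = 9.43e-15), and Rfc2 changed by -0.89. Rfc3 went the other way, with 48.1, 50.04 and 50.7 CPM with DMSO and 72.9, 75.5 and 80.4 CPM with YJ1206 (0.62, SE 0.049, edgeR adjusted p = 6.79e-12), and kept its sign under every scaling. Rfc1, the large subunit, gave 220.0, 225 and 213 CPM with DMSO and 229.9, 242 and 243 CPM with YJ1206 (0.12, SE 0.033, edgeR adjusted p = 0.00202). Subunits that assemble in equal numbers were therefore called in both directions at the RNA level, where 37.8% of all genes rose and 38.3% fell. Groups did not overlap for any of the 5, where 38.4% of all genes were wholly above and 39.2% wholly below. In tumors all 5 fell. Values were 167, 172 and 179.8 CPM with vehicle and 121, 123 and 131 CPM with YJ1206 for Rfc1 (-0.47, SE 0.058, edgeR adjusted p = 0.00236). Rfc3 gave 22.8, 23.8 and 25.01 CPM with vehicle and 9.34, 11.8 and 13.7 CPM with YJ1206 (-1.04, SE 0.14, edgeR adjusted p = 0.00315), the opposite of its direction in cells. Rfc4 had the largest fall, at 27.7, 30.8 and 23.6 CPM with vehicle and 9.94, 12.04 and 11.5 CPM with YJ1206 (-1.29, SE 0.13, edgeR adjusted p = 0.00134), and Rfc5 gave 56.1, 56.9 and 51.5 CPM with vehicle and 25.2, 33.8 and 29.4 CPM with YJ1206 (-0.89, SE 0.11, edgeR adjusted p = 0.00246). Exons of Rfc2, Rfc4 and Rfc5 overlap those of Lat2, Eif4a2 and Wsb2 on the opposite strand. Pcna, the clamp itself, barely changed in cells, at 306, 304 and 302 CPM with DMSO and 291, 289 and 288 CPM with YJ1206 (-0.073, SE 0.028, edgeR adjusted p = 0.0212), and that call was lost without YJ1206 library 1 (-0.07, edgeR adjusted p = 0.0525) or 2 (-0.067, edgeR adjusted p = 0.0731). In tumors Pcna fell to 0.567 of the vehicle level, with 134, 122 and 131 CPM with vehicle and 58.98, 86.3 and 74.03 CPM with YJ1206 (-0.82, SE 0.13, edgeR adjusted p = 0.00491).

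**Figure D3:**
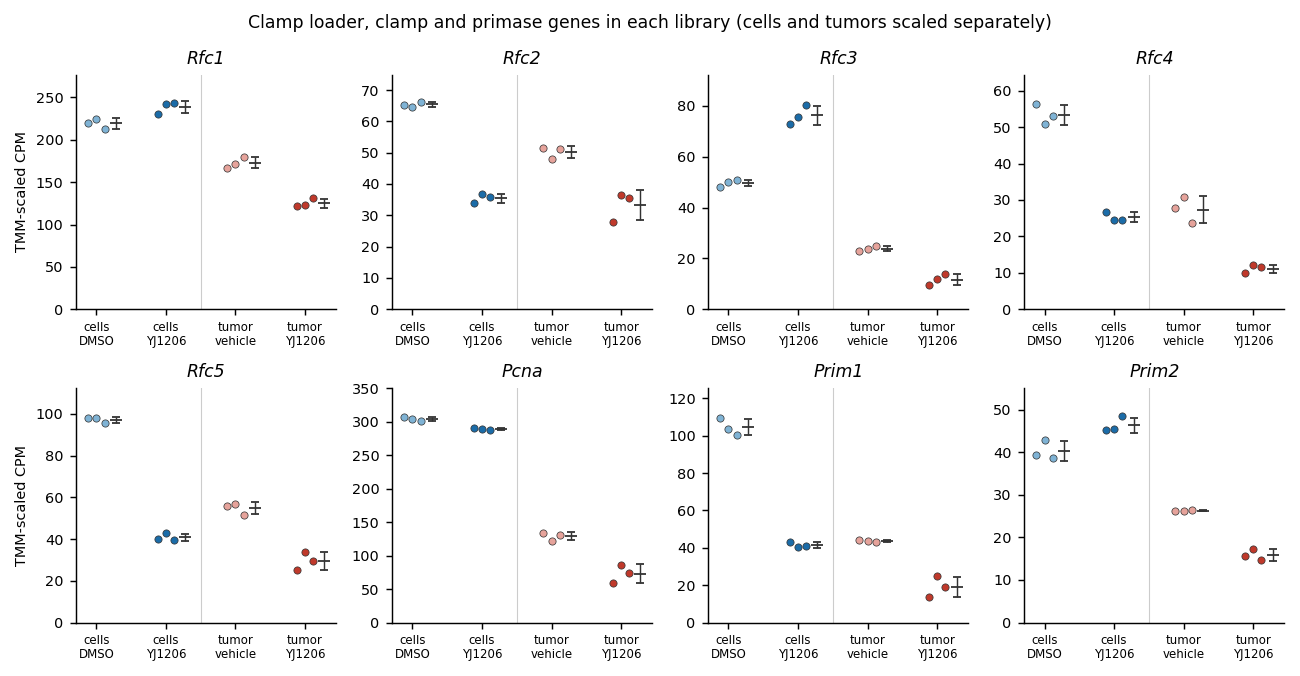
TMM-scaled CPM (y axis, from 0) of the 5 clamp loader genes, Pcna, Prim1 and Prim2 in every library, with the mean and SD of each group of 3 beside the points; cells and tumors were scaled separately. In cells Rfc2, Rfc4, Rfc5 and Prim1 are lower with YJ1206 and Rfc1, Rfc3 and Prim2 higher, although Rfc1 and Prim2 turn negative with TPM, and in tumors all 8 are lower.

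The single-strand binding protein RPA, a trimer that coats unwound DNA, changed little in cells. Rpa1 gave 294, 299 and 294 CPM with DMSO and 330.4, 308 and 317 CPM with YJ1206 (0.10, SE 0.03, edgeR adjusted p = 0.00299) and Rpa2 gave 63.4, 60.4 and 59.8 CPM with DMSO and 65.7, 66.6 and 70.8 CPM with YJ1206 (0.15, SE 0.048, edgeR adjusted p = 0.0077), and both rises turned negative with TPM (-0.19 and -0.23) and with total counts. Rpa3, the smallest subunit, fell, at 31.4, 29.1 and 32.6 CPM with DMSO and 25.8, 24.98 and 22.9 CPM with YJ1206 (-0.34, SE 0.072, edgeR adjusted p = 0.000145). In tumors all 3 fell by similar amounts. Rpa1 gave 162, 232 and 188 CPM with vehicle and 121, 142 and 133 CPM with YJ1206 (-0.55, SE 0.13, edgeR adjusted p = 0.0204), a call lost without vehicle library 3 (-0.57, edgeR adjusted p = 0.0654), YJ1206 library 1 (-0.49, edgeR adjusted p = 0.0714) or YJ1206 library 3 (-0.56, edgeR adjusted p = 0.0788). Rpa2 gave 28.8, 26.6 and 28.05 CPM with vehicle and 15.4, 18.5 and 18.3 CPM with YJ1206 (-0.67, SE 0.099, edgeR adjusted p = 0.00384) and Rpa3 22.3, 25.1 and 22.6 CPM with vehicle and 13.9, 14.8 and 14.3 CPM with YJ1206 (-0.70, SE 0.09, edgeR adjusted p = 0.00257).

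Both genes that finish Okazaki fragments rose in cells on the TMM scale and fell in tumors. Fen1, the flap nuclease, was at 166, 170.4 and 168 CPM with DMSO and 198, 211 and 204 CPM with YJ1206 in cells (0.28, SE 0.034, edgeR adjusted p = 2.8e-08), and Lig1, the ligase that seals the nicks, at 161, 164 and 159 CPM with DMSO and 183, 188 and 177 CPM with YJ1206 (0.18, SE 0.035, edgeR adjusted p = 4.39e-05). These small rises became -0.042 and -0.023 with TPM. In tumors both fell without overlap of groups, with Fen1 at 70.8, 47.9 and 60.4 CPM with vehicle and 24.7, 33.97 and 29.4 CPM with YJ1206 (-1.02, SE 0.17, edgeR adjusted p = 0.00551) and Lig1 at 85.6, 75.4 and 76.6 CPM with vehicle and 26.4, 44.8 and 36.5 CPM with YJ1206 (-1.14, SE 0.17, edgeR adjusted p = 0.0044).

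All 4 genes of nucleotide supply fell in both experiments, the only sub-complex of more than 2 genes with that outcome. Of all 55 members, 27 were lower in both, against 8.99% of the 11235 genes tested in both. Whether this sub-complex stands apart from the other members was not tested. The order of the 4 genes differed between the experiments. In cells Tk1, the salvage kinase for thymidine, fell most, at 52.3, 57.02 and 56.8 CPM with DMSO and 26.6, 27.02 and 24.3 CPM with YJ1206 (-1.09, SE 0.062, edgeR adjusted p = 5.37e-15), followed by Tyms, which makes thymidylate anew, at -1.06. Rrm2, the small and cell cycle regulated subunit of ribonucleotide reductase, fell less, at 925, 897 and 901 CPM with DMSO and 747, 762 and 722 CPM with YJ1206 (-0.29, SE 0.025, edgeR adjusted p = 3.2e-11), and its large subunit Rrm1 changed by -0.17. In tumors Rrm2 had the largest fall of the 55 genes, to 0.265 of the vehicle level, at 259, 332 and 286 CPM with vehicle and 52.6, 101 and 77.7 CPM with YJ1206 (-1.92, SE 0.22, edgeR adjusted p = 0.002). Rrm1, Tk1 and Tyms changed there by -1.28, -1.27 and -0.75. The Tk1 call in tumors was lost without vehicle library 3 (-1.27, edgeR adjusted p = 0.0833) or YJ1206 library 3 (-1.32, edgeR adjusted p = 0.0924).

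Factors that copy chromatin and its marks behind the fork split in cells. Uhrf1, which reads newly copied, hemimethylated DNA and recruits Dnmt1, gave 243, 251 and 240.1 CPM with DMSO and 331, 334 and 349 CPM with YJ1206 (0.47, SE 0.031, edgeR adjusted p = 1.42e-13) and kept its sign under every scaling. Chaf1b, a subunit of the histone chaperone CAF-1, fell, at 61.7, 66.98 and 62.7 CPM with DMSO and 34.4, 42.3 and 37.9 CPM with YJ1206 (-0.74, SE 0.061, edgeR adjusted p = 1.51e-11), and its partner Chaf1a changed by -0.50. Dnmt1, the maintenance methyltransferase, changed by -0.052 without a call. In tumors all 4 fell, Uhrf1 most, at 119, 94.3 and 114 CPM with vehicle and 28.1, 54.9 and 47.8 CPM with YJ1206 (-1.32, SE 0.23, edgeR adjusted p = 0.00657). The fork protection pair fell in both experiments. Tipin gave 143, 142 and 135 CPM with DMSO and 79.4, 85.4 and 74.6 CPM with YJ1206 in cells (-0.81, SE 0.044, edgeR adjusted p = 2.14e-15) and 51.4, 60.9 and 55.8 CPM with vehicle and 29.9, 36.4 and 37.2 CPM with YJ1206 in tumors (-0.70, SE 0.11, edgeR adjusted p = 0.00434). Its partner Timeless changed by -0.33 and -0.67.

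The 2 activating E2F genes among the members were both lower in cells, and 1 of the 2 in tumors. A further activator, E2f3, was counted with the other replication genes. It changed by -0.55 in cells (edgeR adjusted p = 1.64e-10) and by -0.25 in tumors without a call (edgeR adjusted p = 0.067). E2f1 gave 38.2, 36.2 and 38.7 CPM with DMSO and 29.4, 24.8 and 26.1 CPM with YJ1206 in cells (-0.49, SE 0.068, edgeR adjusted p = 3.27e-07) and 22.7, 25.02 and 24.9 CPM with vehicle and 17.3, 18.8 and 18.5 CPM with YJ1206 in tumors (-0.41, SE 0.086, edgeR adjusted p = 0.0132), a tumor call that was lost without vehicle library 3 (-0.39, edgeR adjusted p = 0.066) or YJ1206 library 3 (-0.42, edgeR adjusted p = 0.0572). E2f2 gave 27.96, 25.6 and 30.03 CPM with DMSO and 22.4, 21.4 and 21.5 CPM with YJ1206 in cells, all treated values below the controls (-0.36, SE 0.076, edgeR adjusted p = 0.000147). In tumors E2f2 was at 24.5, 58.3 and 37.3 CPM with vehicle and 38.4, 48.96 and 44.3 CPM with YJ1206, the groups overlapped and no call was made (0.13, SE 0.28, edgeR adjusted p = 0.772).

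The change with YJ1206 was compared between tumors and cells in 1 fit over all 12 libraries, as the log2 fold change in tumors minus that in cells. This fit shares its estimate of the spread between cells and tumors, whose coefficients of variation were 0.0322 and 0.139. Its p-values therefore draw on the more even cell libraries and may understate the tumor spread. The change was lower in tumors for 35 of 55 genes (63.6%) and higher for 2 (3.64%), against 26% and 20.9% of 15328 genes (46.8% in either direction). With total counts the median of all genes moved to 0.198 and the counts became 29 lower and 6 higher. Of 15328 genes 2871 were then lower and 4573 higher, and the share of all called genes that were higher went from 44.6% to 61.4%. The largest differences were Cdt1 (-2.26, SE 0.17, edgeR adjusted p = 1.98e-07), Uhrf1 (-1.81), Dbf4 (-1.80), Rfc3 (-1.68), Rrm2 (-1.66) and Mcm7 (-1.60). All licensing, MCM2-7, single-strand binding and Okazaki genes, 14 in number, had a lower value in tumors. Genes called higher in cells and lower in tumors numbered 16 (29.1%), against 7.26% of the 11235 genes tested in both, and 10 of the 16 are the genes whose rise in cells depended on scaling. Genes lower in both numbered 27 (49.1%), against 8.99%. The remaining 12 were 7 lower in tumors only, 3 lower in cells only, Orc5, higher in cells only, and Pold3, called in neither.

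The genes with the deepest falls in cells had no detectable difference or a small one. They were picked by their cell values, which are subtracted to form the difference. Since most members fell in tumors, this follows in part from the arithmetic. Pole (0.39, SE 0.16, edgeR adjusted p = 0.0592), Prim1 (0.13, SE 0.19, edgeR adjusted p = 0.635), Pola2 (-0.14), Rfc4 (-0.25), Tk1 (-0.20) and Mcm10 (-0.42) were not called. Rfc5 (0.33, SE 0.12, edgeR adjusted p = 0.044) and Tyms (0.28, SE 0.11, edgeR adjusted p = 0.0482) were the 2 genes that fell less in tumors. Both calls were lost in most fits that left out a library, for example without DMSO library 1 for Rfc5 (0.32, edgeR adjusted p = 0.0832) and for Tyms (0.29, edgeR adjusted p = 0.0763). With tumor libraries 1 and 2 alone 33 members had a lower value in tumors and 0 a higher one, where 3480 of 15285 genes were lower and 2491 higher. Fitted without the cells, those same tumor libraries gave 0 member calls, so these 33 rest on the spread shared with cells.

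**Figure D4:**
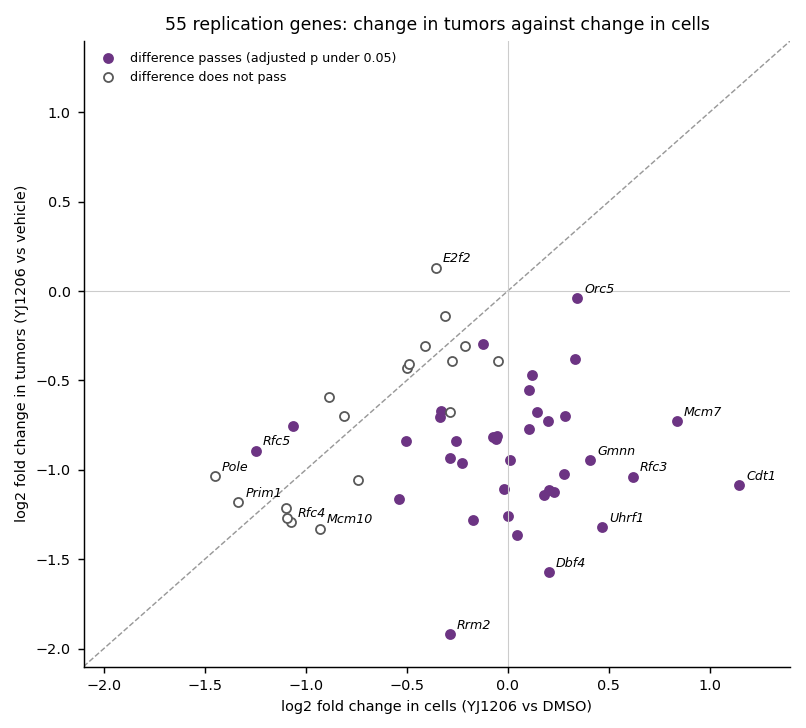
Log2 fold change with YJ1206 in tumors (y axis) against that in cells (x axis) for the 55 replication genes, with filled points where the difference passed an adjusted p under 0.05, open points where it did not, and a dashed line of equal change. Most points lie below the line, and the 16 genes called higher in cells and lower in tumors lie in the lower right part, 10 of them at small positive x values that turn negative with TPM or total counts.

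Ratios of partner genes within a library do not depend on the scaling of that library. These pairs were chosen after the values were seen and are descriptions without a test. The TPM ratio of Cdt1 to Gmnn in cells was 0.717, 0.678 and 0.684 with DMSO and 1.14, 1.18 and 1.16 with YJ1206, and in tumors 1.03, 0.808 and 0.843 with vehicle and 0.783, 0.760 and 0.876 with YJ1206. Rfc3 to Rfc4 was 0.775, 0.889 and 0.855 with DMSO and 2.47, 2.72 and 2.92 with YJ1206 in cells and 0.754, 0.701 and 0.971 with vehicle and 0.838, 0.874 and 1.08 with YJ1206 in tumors. Both ratios were higher in every treated cell library, while in tumors the groups overlapped. Mcm7 to Mcm2 was 1.67, 1.72 and 1.77 with DMSO and 3.90, 3.82 and 3.71 with YJ1206 in cells, and 1.97, 2.56 and 2.40 with vehicle and 2.86, 2.48 and 2.66 with YJ1206 in tumors, where the groups overlapped. Prim1 to Prim2 was 3.62, 3.16 and 3.40 with DMSO and 1.24, 1.16 and 1.09 with YJ1206 in cells and 2.18, 2.15 and 2.13 with vehicle and 1.14, 1.86 and 1.70 with YJ1206 in tumors. Rrm2 to Rrm1 was 3.93, 3.83 and 3.96 with DMSO and 3.62, 3.76 and 3.44 with YJ1206 in cells and 2.61, 3.50 and 2.94 with vehicle and 2.01, 2.07 and 1.86 with YJ1206 in tumors. The last 2 ratios were lower in every treated library of both experiments.

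Counts per TPM of a gene, set to 1 at the median gene of a library, follow the mean length of the transcripts to which its reads were assigned. Orc4 moved most of the members shown, with 0.681, 0.745 and 0.823 with DMSO and 0.477, 0.398 and 0.394 with YJ1206 in cells, a log2 change of -0.82. Orc4 was lower by counts (log2 fold change -0.28) and higher by TPM (0.26) in the same libraries. Pole gave 2.41, 2.35 and 2.42 with DMSO and 1.64, 1.87 and 1.67 with YJ1206 (log2 change -0.47), and Tipin 0.273, 0.254 and 0.246 with DMSO and 0.209, 0.229 and 0.220 with YJ1206 (-0.23). A change over 0.25 without overlap of groups was found for 2 of 55 members in cells, against 4.58% of genes, and for 0 in tumors, against 1.28%. In tumors Orc4 gave 0.635, 0.686 and 0.634 with vehicle and 0.632, 0.616 and 0.514 with YJ1206 (-0.15) and Pole 2.05, 2.05 and 2.12 with vehicle and 1.76, 2.02 and 1.84 with YJ1206 (-0.15), in the same direction and smaller. Orc4 lies at chr2:48902824-48950277 (minus strand) and Pole at chr5:110286306-110337474 (plus strand) on GRCm38. Gene spans by call in cells had medians of 17.3 kb for genes called higher, 20.2 kb for those called lower and 27.0 kb for those not called.

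**Figure D5:**
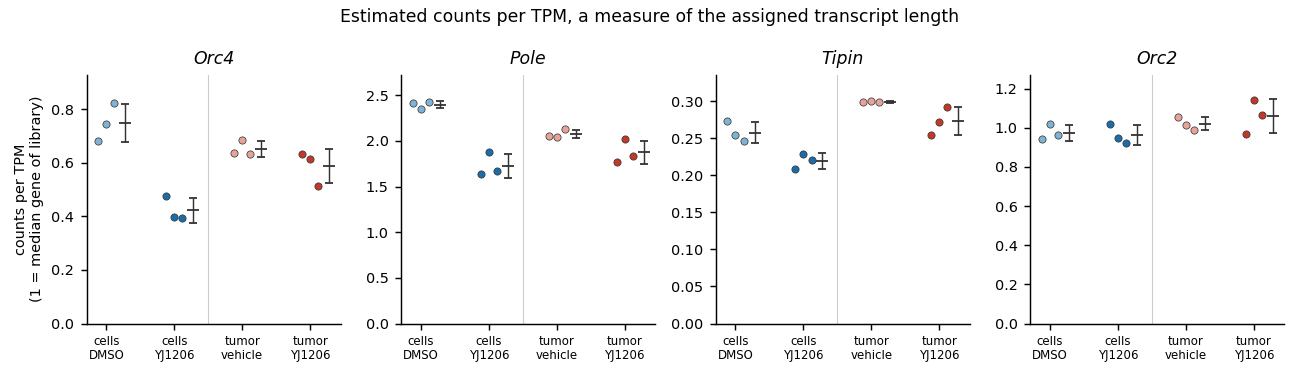
Estimated counts per TPM relative to the median gene of the same library (y axis, no unit, from 0) for Orc4, Pole, Tipin and Orc2 in every library, with the mean and SD of each group of 3. Orc4, Pole and Tipin are lower with YJ1206 in cells without overlap, and Orc2 overlaps.

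Other genes of DNA replication, 56 in number, were counted in the same way. In cells 17 rose and 33 fell, with a median of -0.28, and in tumors 1 rose and 39 fell, with a median of -0.57. Over all genes tested 37.8% rose and 38.3% fell in cells, and 11.9% rose and 14.9% fell in tumors. On the TMM scale the largest changes in each direction in cells were Rrm2b (-1.90), the ribonucleotide reductase subunit of resting cells, Chtf18 (-1.60), an alternative clamp loader subunit, Ssrp1 (1.15), a histone chaperone, and Nasp (0.75), another. In tumors Recql4 (-1.65), a helicase of replication initiation, and Top2a (-1.60), a topoisomerase, fell most. Mitosis genes were 44 in all. In cells 19 rose and 17 fell, near those shares of all genes, with a median of 0.056, while all 44 fell in tumors, with a median of -1.48, and all 44 differed between the experiments. The shift of the median gene with total counts or TPM, given above, is larger than that mitosis median in cells. Kif20a, a mitotic kinesin, changed by 0.94 and Aurka, a spindle kinase, by 0.92 in cells, while Cdc25c (-0.74) and Smc4 (-0.58) fell most there. Cenpf, a kinetochore protein, changed by -1.92 and Aurkb, another kinase, by -1.83 in tumors. In all genes tested the medians were -0.017 in cells and 0.0091 in tumors.

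Markers of other cells in the tumors were counted against the 11.9% of all genes called higher and 14.9% called lower there, and their part in the result was not tested. Summed leukocyte TPM (19 genes) was 581 to 623 in vehicle and 685 to 796 in YJ1206 tumors, with 2 of 16 tested genes higher and 1 lower. Endothelial genes (8) summed to 68.4 to 72.0 and 78.4 to 83.5, with 1 of 8 higher. Fibroblast genes (9) summed to 240.2 to 747 and 169.8 to 371, with 1 of 9 lower, and all 7 tested skeletal muscle genes of 8 were lower. In cells the sums were at most 10.3 TPM for leukocyte, 7.03 for fibroblast and 0.773 for endothelial genes, with Ptprc, Col3a1 and Cdh5 among those listed at 0 in all cell libraries, and skeletal muscle genes summed to 8.56 to 13.0 TPM in DMSO cells.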

How the data were processed

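Libraries were made from total RNA by enzymatic removal of ribosomal RNA and read in pairs, although the labels call the RNA of the cell libraries polyA. The authors deposited estimated counts and TPM per gene, made with kallisto on GRCm38 (mm10) per the submitters' processing notes. The kallisto version, annotation and use of strand were not given in the sources used here. The members and lists were chosen with earlier results of these data known. The deposited estimated counts were rounded and tested by the quasi-likelihood method of edgeR 4.0.16 (R 4.3.3), after filterByExpr and with TMM factors, at a Benjamini-Hochberg adjusted p under 0.05, for YJ1206 against DMSO in cells, against vehicle in tumors, and for the difference of both over 12 libraries, with all genes in each fit. The deposited TPM served for levels, and on the log2(TPM + pseudocount) scale, with pseudocounts of 1 and 0.1, for alternative tests in limma 3.58.1. Other alternatives were DESeq2 1.42.0, total counts, no filter, the replicate number as a block, leaving out libraries, and tumor libraries 1 and 2 alone. The fits were also run on simulated data with known changes. For the difference fit, cells and tumors were simulated with the same level and spread per gene, so unlike spreads were not tested. The study's methods state in general that replicates were biological and independent. The labels do not tie libraries to separate cultures or mice, so p-values measure the spread between these libraries, part of which may be technical. No pair of libraries was identical (chi-square per gene 1.91 to 46.7). No interval for counting error is given. Library totals were 13936902 to 26928365. Same-numbered libraries did not deviate together. All 55 identifiers matched GENCODE vM21 positions on GRCm38, and 14 genes share exon bases with another coding gene. Values for every library are given, per experiment and sub-complex, for the called member with the largest change at a mean of at least 5 CPM, for each member with opposite calls in cells and tumors, and for Mcm2, Pcna, Cdc6, Cdt1, Gmnn, E2f1, E2f2 and Rrm2. Other lists give up to 4 genes each per experiment, beside E2f3. Some luminal markers and the sum of their list are not reported here.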

Additional observations from a re-analysis of the deposited data

Results flagged for a closer look

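The change with YJ1206 differed between tumors and cells for 37 of the 55 replication genes, against 46.8% of all 15328 genes tested. Differences were called by the interaction term of the edgeR fit over 12 libraries, at an adjusted p under 0.05. That fit shares the spread of cells and tumors, so its calls draw on the more even cell libraries. The values in parentheses are the log2 fold change in tumors minus that in cells, with 3 libraries in each group. Of the origin recognition complex, these were Orc1 (-0.79), Orc2 (-0.21), Orc5 (-0.41) and Orc6 (-1.01). The licensing genes were Cdc6 (-0.90), Cdt1 (-2.26) and Gmnn (-1.38). All subunits of the MCM2-7 ring differed, with Mcm2 (-0.61), Mcm3 (-1.38), Mcm4 (-0.99), Mcm5 (-1.44), Mcm6 (-1.12) and Mcm7 (-1.60). Helicase activation had Cdc45 (-0.65), Gins1 (-1.27) and Dbf4 (-1.80). Polymerase alpha-primase had Pola1 (-0.68) and Prim2 (-0.96). The polymerases delta and epsilon had Pold1 (-0.76), Pold2 (-0.74) and Pole2 (-1.34). The clamp and its loader had Pcna (-0.77), Rfc1 (-0.62), Rfc3 (-1.68) and Rfc5 (0.33). All RPA subunits differed, with Rpa1 (-0.68), Rpa2 (-0.85) and Rpa3 (-0.40). Okazaki fragment maturation had Fen1 (-1.33) and Lig1 (-1.34). Nucleotide supply had Rrm1 (-1.13), Rrm2 (-1.66) and Tyms (0.28). Chromatin copying had Uhrf1 (-1.81), Dnmt1 (-0.79) and Chaf1a (-0.36). Fork protection had Timeless (-0.37). Rfc5 and Tyms fell less in tumors than in cells, and the other 35 had the lower value in tumors. The genes Orc2, Chaf1a, Rfc5 and Tyms lost this call in several fits that left out a library. Groups of 3 libraries were not screened for single outlying samples by a test, and YJ1206 tumor library 1 had the lowest treated CPM for 51 of the 55 genes.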

How the results depend on the processing

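In cells the number of members called higher was 9 with total counts and 4 with deposited TPM at either pseudocount, against 17, while those called lower stayed between 27 and 42 under all alternatives run. In tumors 0 members were called lower with libraries 1 and 2 only, by edgeR at 2 against 2, against 50, and the other alternatives gave 41 to 51. For the difference, members called higher numbered 0 with DESeq2, 6 with total counts, 1 without the filter, 0 with the replicate block, 0 with tumor libraries 1 and 2 only and 0 to 5 with 1 library left out, against 2, and those called lower 29 to 37. Of all genes, 3804 to 6155 were called lower in cells and 2871 to 4229 for the difference. In tumors 1110 to 2965 were, leaving aside the fit of libraries 1 and 2 only. The cause was not tested.

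Log2 fold changes in cells that changed sign were, with total counts, Cdc6 -0.0824, Mcm4 -0.173, Mcm5 -0.14, Gins1 -0.186, Rfc1 -0.067, Rpa1 -0.0822, Rpa2 -0.0412 and Lig1 -0.00801. With TPM and a pseudocount of 1 they were Orc4 0.258, Orc6 -0.0589, Cdc6 -0.273, Mcm3 -0.0753, Mcm4 -0.285, Mcm5 -0.269, Gins1 -0.327, Dbf4 -0.124, Prim2 -0.106, Pole2 -0.102, Rfc1 -0.244, Rpa1 -0.187, Rpa2 -0.229, Fen1 -0.0424 and Lig1 -0.0233. With a pseudocount of 0.1 they were Orc4 0.262, Orc6 -0.0592, Cdc6 -0.281, Mcm3 -0.0757, Mcm4 -0.287, Mcm5 -0.27, Gins1 -0.333, Dbf4 -0.125, Prim2 -0.108, Pole2 -0.105, Rfc1 -0.246, Rpa1 -0.188, Rpa2 -0.232, Fen1 -0.0426 and Lig1 -0.0235. Without the filter they were Mcm4 -0.00132 and Gins1 -0.0139, and with the replicate block Gins1 -0.00521. Over fits without 1 library the sign turned for Mcm4 (-0.00554 to 0.0438), Mcm6 (-0.0417 to 0.00856), Gins1 (-0.121 to 0.0718) and Pold3 (-0.0819 to 0.00367) in cells and for Orc5 (-0.0741 to 0.0093) and E2f2 (-0.132 to 0.519) in tumors, none of them called.

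Differences that changed sign were, with total counts, Orc2 0.00982, Orc4 0.0714, Gins4 0.0941, Pola2 0.072 and Tk1 0.0153, with DESeq2 Cdc7 -0.000141, and with tumor libraries 1 and 2 only Gins2 -0.000886. Without 1 library they were Gins2 (-0.0113 to 0.17), Cdc7 (-0.0371 to 0.0911), Pola2 (-0.299 to 0.014), Prim1 (-0.103 to 0.316), Tk1 (-0.564 to 0.106) and E2f1 (-0.00452 to 0.12). Orc2 was the only called gene among these.

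The labels number the libraries, but same-numbered libraries did not deviate together (r from -0.0303 to 0.00316, none over 0.1). Differently numbered libraries had r from -0.0377 to 0.0468. No pairing by number was seen, and whether this check could detect one was not tested. With the replicate block 17 members were called higher and 30 lower in cells, 49 lower in tumors, and 33 lower for the difference. Of all genes, 4425 of 11826 were higher and 4480 lower in cells. In tumors 1927 of 15558 were lower, and for the difference 3820 of 15328. The 3 libraries per group and the spread among tumors limit what can be called there.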
